A study of Mus musculus with 4 samples.

Results

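The genes described here are 10 members of the NF-kB pathway and its best known targets, followed through 4 ATAC-seq peak lists from mouse bone marrow-derived macrophages: Tnf, Icam1, Map3k8, Nfkbia, Nfkbiz, Rela, Rel, Relb, Nfkb1 and Nfkb2. They were taken by name, 10 of 21887 protein-coding genes, together with every peak within 10 kb of the gene span and, more widely, within 50 kb. Merging the 4 lists gave 20540 regions. Of these, 19 lay within 10 kb of a member and a further 28 between 10 and 50 kb. ATAC-seq maps open chromatin by letting the transposase Tn5 insert adapters into accessible DNA, and a peak is a stretch where such insertions pile up.

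The macrophages were grown from C57BL/6 bone marrow for 5 days in 10% M-CSF, and 50000 cells went into each library. WT untreated and WT IL-4 came from wild-type mice, KO untreated and KO IL-4 from Slc6a8-/y mice, which lack the X-linked creatine transporter gene. IL-4, the cytokine of alternative activation, was given at 10 ng/mL for 6 h. Each group held 1 library, so no difference below can be set against replicate error and no p-value is given: a comparison is between these libraries. The labels do not say how many mice a library came from. The cells were not sorted, so in these bulk samples fewer cells with an open site and a less open site in every cell cannot be told apart.

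NF-kB is a family of dimeric transcription factors held inactive in the cytoplasm by inhibitor proteins. Signals from TNF, interleukin 1 or Toll-like receptors activate kinases that tag the inhibitors for destruction, the dimers enter the nucleus, and among the genes they switch on are those of TNF and of the inhibitors themselves. In macrophages the pathway drives the inflammatory, classically activated state, and IL-4 drives the alternative one.

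The lists differ in length, which bears on every count below: WT untreated held 17339 peaks, WT IL-4 9930, KO untreated 13714 and KO IL-4 10443. Each peak has a score given by the authors, which ranks peaks only within its list and is printed here with its percentile there. The sources used here state no read depth. No library had a peak within 10 kb of Slc6a8, so the targeted gene does not check the labels. Of 12 macrophage marker genes 12, 9, 9 and 7 had a peak within 10 kb in the libraries as ordered above, with Csf1r and Cd68 among them each time. Fibroblast markers had 0 of 3 in every library, neutrophil markers 0 or 1 of 5, T cell markers 2 of 5, B cell markers 1 of 4 and erythroid markers 1 of 3.

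All 10 members had a peak within 10 kb in the WT untreated list, against 8 in each of WT IL-4 and KO untreated and 6 in KO IL-4. The same share over all protein-coding genes was 56.0%, 43.3%, 51.6% and 44.1%. Of the 19 regions, 18 held a peak of WT untreated and 9 one of WT IL-4, while 10 held one of KO untreated and 8 one of KO IL-4. Those shares were 94.7%, 47.4%, 52.6% and 42.1%, beside 83.0%, 48.1%, 66.3% and 50.4% of all merged regions, and each of the latter lay inside the exact interval of the members' share. A peak was present in all 4 libraries at 4 regions, 2 at Relb and 1 each at Rel and Nfkb2, which is 21.1% of the 19 (exact Clopper-Pearson 95% interval 6.05 to 45.6, counting error only) beside 32.5% of all merged regions. WT untreated, the longest list, thus had nearly every region. A further 5 regions (26.3%) had a peak in WT untreated alone, beside 19.1% of all regions, and 1 (5.26%) in KO untreated alone, beside 7.50%.

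**Figure D1:**
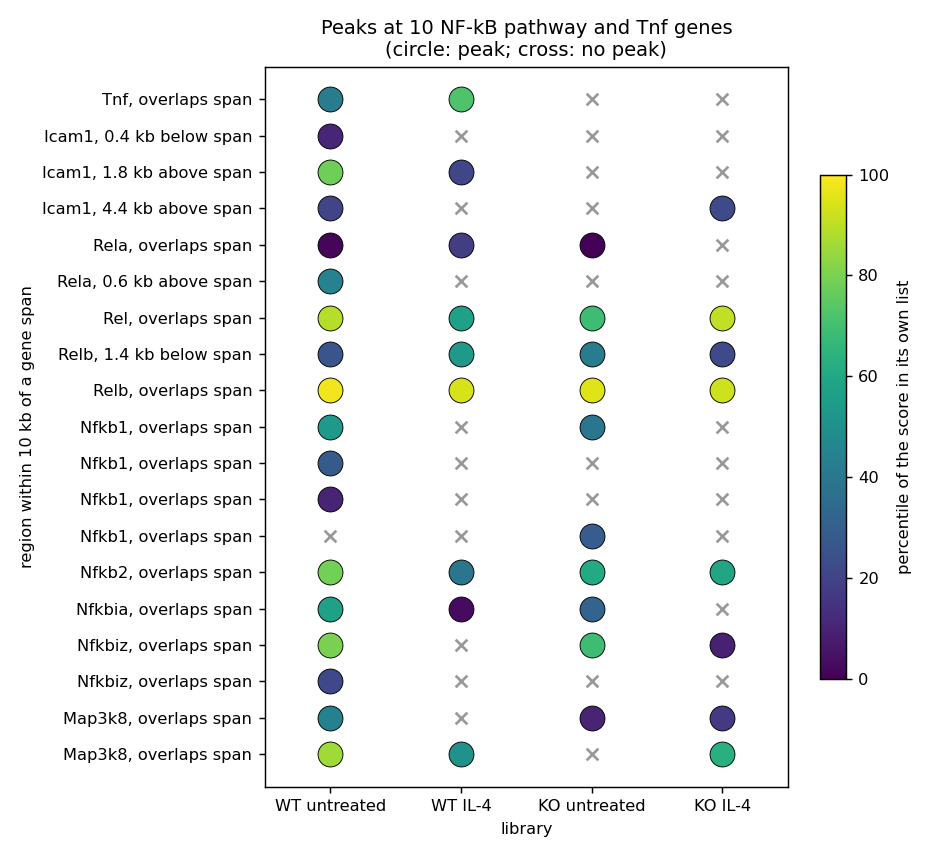
Rows are the 19 merged regions within 10 kb of the 10 genes, with their place relative to the gene span (above and below refer to coordinates), and columns are the 4 libraries. A circle is a peak, coloured by the percentile of its score in its own list, and a cross is no peak. WT untreated is filled in 18 rows, and 4 rows, at Rel, Relb and Nfkb2, are filled in all 4 libraries.

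Tnf, which encodes the cytokine that both activates NF-kB and is induced by it, had a peak in the WT libraries and none in the KO libraries. The peak lay inside the gene (mm10 chromosome 17, 35200389 to 35201047 after merging). The RefSeq gene span runs from 35199367 to 35202007 on the minus strand. In WT untreated the peak covered bases 1061 to 1565 downstream of the start site, with a score of 87.7 at percentile 41.5. In WT IL-4 it covered bases 960 to 1618, with a score of 121 at percentile 72.1. The annotation used here does not separate exons from introns. No library had a peak over the 250 bases upstream of the start, the window used here for every promoter. That sequence is shown because the open site at Tnf lay downstream of it, as RefSeq gives it for GRCm38.p6 (the coordinates of mm10), chr17:35202008-35202257, minus strand, ending at the base before the start. It held no match to any of the 5 motifs searched, so it has no capitals, and bases further upstream were not searched:
Tnf: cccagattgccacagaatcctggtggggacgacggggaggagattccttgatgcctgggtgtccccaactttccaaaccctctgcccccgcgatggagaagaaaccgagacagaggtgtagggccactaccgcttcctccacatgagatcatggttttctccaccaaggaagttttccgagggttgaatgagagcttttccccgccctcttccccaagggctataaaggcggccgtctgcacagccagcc

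An absence like that of the Tnf peak was uncommon at its score after IL-4 and common without it. Among WT IL-4 peaks in the same score decile of that list, 5.44% had no overlapping peak in KO IL-4. Among WT untreated peaks of the decile that holds the Tnf peak, 36.9% had none in KO untreated. Both WT peaks lay within 10 kb of Lta, 2118 bp from its span after IL-4, and of Ltb, at 4084 bp. These neighbouring cytokine genes therefore share the observation and do not add to it. Of all protein-coding genes, 162 others (0.740%) had the same 4 counts of peaks within 10 kb as Tnf, 1 in each WT library and 0 in each KO library. Lta and Nfkbid were the 2 of the 52 other pathway genes among them.

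Icam1, the gene of an endothelial and leukocyte adhesion molecule and a standard NF-kB target, had 3 peaks within 10 kb in WT untreated and 1 in WT IL-4, against 0 in KO untreated and 1 peak in KO IL-4. The span is on chromosome 9, 21015940 to 21028814, plus strand. The highest peak lay past the end of the gene, 1781 bp from the span and over the neighbouring gene Icam4 (21030595 to 21031238). It scored 182 in WT untreated (percentile 78.1) and 60.7 in WT IL-4 (percentile 20.9), and neither KO library had a peak there. Of the WT untreated peaks in the same score decile, 4.27% had no counterpart in KO untreated. Of the WT IL-4 peaks in the decile of the weaker peak, 44.2% had none in KO IL-4, so that absence was common at its score. Like the site in Tnf, the site over Icam4 had a peak in both WT libraries and in neither KO library, a pattern of 2 of the members' 19 regions (10.5%) beside 2.68% of all regions. Icam4, whose own product is an adhesion molecule of red cells, lies within the same 10 kb, so the peak cannot be assigned to one of the neighbours.

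The other Icam1 peaks were weaker. One lay 445 to 718 bases upstream of the start site in WT untreated alone (score 57.5, percentile 10.8). The other lay inside the neighbouring Icam5, 4424 bp past the span of Icam1, with a score of 64.5 in WT untreated and 62.2 in KO IL-4 and no peak in WT IL-4 or KO untreated. With IL-4 it was thus lost in WT and gained in KO. In its WT untreated decile, 81.6% of peaks had no counterpart in WT IL-4, so that loss was common at its score. In its KO IL-4 decile, 33.8% of peaks had none in KO untreated. The 250 bases upstream of the Icam1 start (chr9:21015690-21015939, plus strand) had no peak in any library. They held no exact match to the motifs, which does not show that a looser kappaB site is absent. The stretch ggaaattcct in them differs in its last base from the match at Nfkbia below and was not counted. The sequence is shown because the peak of WT untreated stopped short of it:
Icam1: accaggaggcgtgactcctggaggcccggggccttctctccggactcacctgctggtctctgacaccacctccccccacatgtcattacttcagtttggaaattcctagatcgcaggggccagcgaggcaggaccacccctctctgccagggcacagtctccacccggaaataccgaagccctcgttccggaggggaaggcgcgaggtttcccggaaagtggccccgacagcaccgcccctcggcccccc

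Map3k8, the kinase gene also known as Tpl2, encodes an enzyme that is bound and restrained by the p105 product of Nfkb1 and released when p105 is degraded. Its strongest peak straddled the upper end of the span (chromosome 18, span 4331325 to 4352953, merged peak 4352793 to 4353820). It scored 231 in WT untreated (percentile 85.6), 85.9 in WT IL-4 (percentile 50.4) and 106 in KO IL-4 (percentile 63.3), with no peak in KO untreated. KO untreated thus lacked a peak that the other 3 libraries had. Of the WT untreated peaks in that score decile, 0.346% had no counterpart in KO untreated. Over all merged regions, 2.05% were missing from KO untreated alone.

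A second Map3k8 peak, inside the gene (4336405 to 4336906), scored 90.5 in WT untreated, with none in WT IL-4. Its scores in KO were 55.3 untreated and 58.4 after IL-4. In counts, Map3k8 went from 2 to 1 with IL-4 in WT and from 1 to 2 in KO. Gadd45b, an NF-kB target that limits cell death, was the 1 pathway gene with the same 4 counts, which 123 genes shared with Map3k8 (0.562%).

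Nfkbia encodes IkB-alpha, the inhibitor that is degraded rapidly on stimulation and resynthesised as feedback. Its start had peaks in 3 libraries and none in KO IL-4 (chromosome 12, span 55489409 to 55492647, minus strand, merged region 55491787 to 55493076). WT untreated had 2 peaks there, with scores of 77.7 and 115 (percentiles 33.9 and 57.0). KO untreated also had 2, of 72.0 and 68.9 (percentiles 31.9 and 28.7). WT IL-4 had 1, of 51.4, at percentile 2.98 and so close to the lowest score of its list. At such a score an absence elsewhere carries little: 59.0% of the WT IL-4 peaks in that decile had no counterpart in KO IL-4.

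The sequence upstream of the Nfkbia start is shown because the peaks of 3 libraries reached into it. They ended 66 bases before the start in WT IL-4 and 240 in WT untreated, and in KO untreated 429 bases before it, past the far end of the sequence. Capitals mark the match to the NF-kB (kappaB) consensus, which lies 20 to 29 bases before the start, within the reach of all 3 (chr12:55492648-55492897, minus strand):
Nfkbia: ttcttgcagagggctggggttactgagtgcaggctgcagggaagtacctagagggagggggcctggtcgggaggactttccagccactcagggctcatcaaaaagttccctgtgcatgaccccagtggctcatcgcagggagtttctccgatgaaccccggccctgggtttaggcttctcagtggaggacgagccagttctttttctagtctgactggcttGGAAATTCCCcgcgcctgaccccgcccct

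Nfkbiz encodes IkB-zeta, an atypical nuclear member of the inhibitor family that co-activates a subset of NF-kB targets. A peak inside the gene (chromosome 16, 55821940 to 55822649) scored 191 in WT untreated (percentile 79.9), 135 in KO untreated (percentile 69.1) and 54.2 in KO IL-4 (percentile 9.21). WT IL-4 had no peak at the gene or within 50 kb. Of the WT untreated peaks in that score decile, 18.4% had no counterpart in WT IL-4. A second peak, 14 bp inside the upper end of the span, was found in WT untreated alone (score 66.0). After IL-4, Nfkbiz therefore had a peak in KO and none in WT, while Tnf had one in WT and none in KO. The 2 absences were not alike in frequency. In the decile of the Nfkbiz peak, 64.9% of KO IL-4 peaks had no counterpart in WT IL-4. In that of the Tnf peak, 5.44% of WT IL-4 peaks had none in KO IL-4.

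Rel encodes c-Rel, the subunit most prominent in blood cells, and Relb the subunit of the non-canonical pathway. Both had peaks at a gene end in every library. The Rel region (chromosome 11, 23770590 to 23771680) spanned the start site, with a score of 263 in WT untreated (percentile 89.0), 134 in KO untreated (percentile 69.1) and 198 in KO IL-4 (percentile 90.3). WT IL-4 had 2 shorter peaks there, of 94.1 and 52.1, so its count of 2 reflects a divided peak and not an added region. Relb had the highest percentiles of the 10 genes in each library. Its peak inside the upper end of the span (chromosome 7, 19628183 to 19629222) scored 458 in WT untreated (percentile 97.8) and 224 in WT IL-4 (93.9). The KO libraries had 306 untreated (95.1) and 217 after IL-4 (92.5). A second Relb region, 1444 bp below the span and inside the neighbouring gene Clasrp, had peaks of 69.8, 89.7, 82.3 and 62.1 in the same order. At the score decile of the higher Relb peak, 0.288% of WT untreated peaks had no counterpart in WT IL-4 and 0.231% none in KO IL-4, so its presence in all 4 lists was usual for such a score.

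Nfkb2, whose p100 product is the partner of RelB, also had a peak in all 4 libraries (chromosome 19, 46304190 to 46304937). It scored 186 and 74.4 in the untreated and IL-4 libraries of WT (percentiles 78.8 and 39.3), and 114 and 98.0 in those of KO (60.7 and 58.8). RefSeq gives 3 start sites for Nfkb2, and the peak covered the first of them, which lies inside the gene span (46300994 to 46312400). The peaks ran from between 502 and 547 bases upstream of that site to between 96 and 200 bases downstream of it. The promoters of Rel (chr11:23770970-23771219, minus strand) and Nfkb2 (chr19:46304487-46304736, plus strand) are shown together because both lay under a peak in every library. Capitals mark NF-kB matches in both and, in Rel, the upstream capitals mark a match to the PU.1 motif GAGGAAGT, the site of a macrophage lineage factor:
Rel: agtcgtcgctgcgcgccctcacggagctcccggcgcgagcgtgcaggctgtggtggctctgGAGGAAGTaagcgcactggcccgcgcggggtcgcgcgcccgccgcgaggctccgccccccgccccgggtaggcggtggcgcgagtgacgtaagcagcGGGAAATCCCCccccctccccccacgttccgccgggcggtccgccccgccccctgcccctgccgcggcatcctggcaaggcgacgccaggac
Nfkb2: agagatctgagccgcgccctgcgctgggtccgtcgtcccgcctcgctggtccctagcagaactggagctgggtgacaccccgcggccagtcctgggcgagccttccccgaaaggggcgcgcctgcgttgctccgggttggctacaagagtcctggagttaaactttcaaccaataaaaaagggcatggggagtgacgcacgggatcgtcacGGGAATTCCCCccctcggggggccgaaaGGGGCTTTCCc

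In Rel the NF-kB matches overlap in 1 stretch, 82 to 92 bases before the start. In Nfkb2 there are 2 stretches, 29 to 39 and 2 to 11 bases before it. The windows upstream of the other two Nfkb2 start sites each held an NF-kB match as well, and one of them an AP-1 match, and no library had a peak over either. The search used the 250 bases upstream of 32817 RefSeq start sites, both strands, for the NF-kB consensus, PU.1 (GAGGAAGT), AP-1 (TGANTCA), CRE (TGACGTCA) and the IRF element, a pair of GAAA letters with 2 bases between. Of all windows 7.25% held an NF-kB match, 2.44% PU.1, 6.75% AP-1, 1.55% CRE and 2.97% IRF. Of the 6 members with a window in the table, 3 (Rel, Nfkb2 and Nfkbia) had an NF-kB match and 3 (Tnf, Icam1 and Rela) had none. Relb, Nfkb1, Nfkbiz and Map3k8 were not in the table. Over all windows, those with an NF-kB match lay under a WT untreated peak in 30.5% of cases and the others in 25.3%, and in KO IL-4 in 23.1% and 19.3%. A match is a stretch of letters and does not show that a factor was bound. Every NF-kB match at the members began with GGG on either strand, so looser kappaB sites would have been missed.

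Rela and Nfkb1 encode p65 and p105/p50, the classical dimer, and neither gene had a peak within 10 kb in KO IL-4. At the Rela start (chromosome 19, 5637095 to 5637649) the scores were close to the floor of each list: 51.2 in WT untreated, 58.9 in WT IL-4 and 50.3 in KO untreated, at percentiles 1.35, 17.6 and 0.645, with none in KO IL-4. A stronger peak 573 bp past the end of the Rela span scored 91.6 in WT untreated and was absent from the other 3 libraries. Of WT untreated peaks in its decile, 62.1% had no counterpart in WT IL-4, 36.9% none in KO untreated and 59.4% none in KO IL-4. Nfkb1 (chromosome 3, span 135584655 to 135691969) had peaks in the untreated libraries and in neither IL-4 library. An internal peak (135596881 to 135597430) scored 109 in WT untreated and 80.1 in KO untreated. WT untreated had 2 more inside the gene (71.7 and 56.8), and KO untreated had 1 at the upper end of the span (69.4, 135691234 to 135691672) that no other library had. Absence after IL-4 was common at these scores. In the deciles of the WT untreated peaks of 109, 71.7 and 56.8, 47.6%, 75.0% and 83.9% had no counterpart in WT IL-4. In those of the KO untreated peaks of 80.1 and 69.4, 56.8% and 66.6% had none in KO IL-4. With counts of 3, 0, 2 and 0, Nfkb1 matched 20 other genes (0.0914%), including Traf3, a brake on the non-canonical pathway.

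Counted over the 4 comparisons, the members' peaks within 10 kb were lost with IL-4 in WT about as often as any peak. A peak of the reference library with no overlap in the other is called lost, and the reverse gained. With IL-4 in WT, 9 of 19 members' peaks were lost (47.4%, interval 24.4 to 71.1), beside 47.7% of all WT untreated peaks, and 0 of 10 were gained, beside 10.3%. The 9 lay at Icam1 (2), Nfkb1 (3), Nfkbiz (2), Rela (1) and Map3k8 (1). With IL-4 in KO, 5 of 11 were lost (45.5%, interval 16.7 to 76.6), beside 37.7% of all peaks, and 2 of 8 gained, beside 18.1%. The lost peaks were 2 at Nfkb1, 2 at Nfkbia and 1 at Rela, and the gained ones lay at Icam1 and Map3k8.

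Between the genotypes, 9 of 19 members' peaks in WT untreated were lost in KO untreated (47.4%, interval 24.4 to 71.1), beside 32.1% of all peaks, and 1 of 11 was gained, beside 15.4%. Averaged over the score deciles that these 19 peaks fall in, the share of all peaks lost was 35.0%, which lies inside the interval. The lost peaks were 3 at Icam1, 2 at Nfkb1 and 1 each at Tnf, Rela, Nfkbiz and Map3k8. After IL-4, 4 of 10 were lost in KO (40.0%, interval 12.2 to 73.8), beside 26.1%, and 3 of 8 gained, beside 29.5%. When each list was cut to its top 9930 peaks by score, the counts with IL-4 in WT became 4 of 10 lost, beside 25.8% of all peaks, and 3 of 10 gained, beside 26.0%. Those between the untreated libraries became 4 of 10 lost, beside 21.8%, and 3 of 9 gained, beside 22.1%. In each of these 4 comparisons the interval for the members held the share of all peaks, so at 10 kb no departure from the whole lists was detectable with so few peaks.

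**Figure D2:**
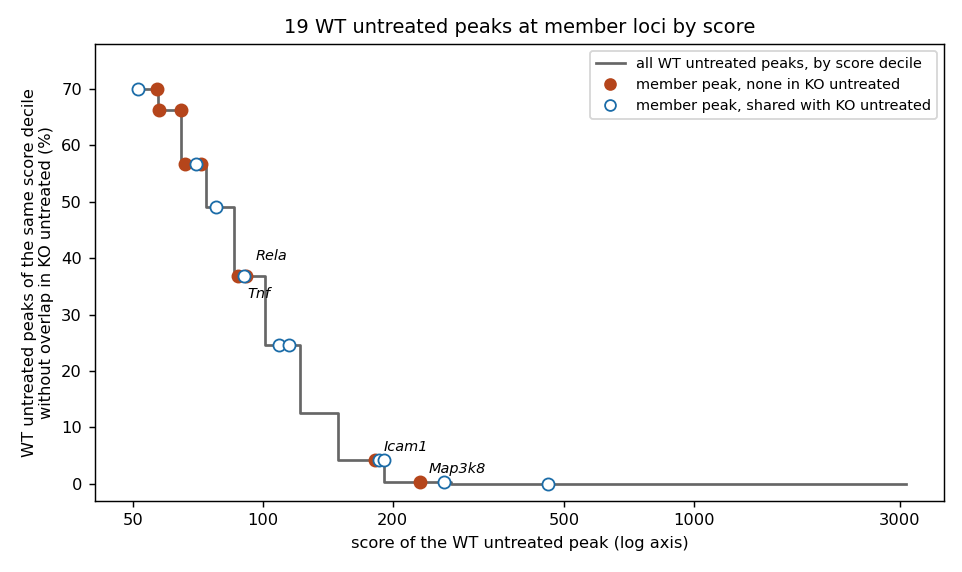
The horizontal axis is the score of a WT untreated peak on a log axis, and the vertical axis the percentage of all WT untreated peaks in the same decile of the list by score that had no overlapping KO untreated peak (grey line). Circles are the 19 peaks within 10 kb of the members, filled where KO untreated had no overlapping peak. The Map3k8 peak (score 231) and the Icam1 peak (score 182) are the filled circles where the line is lowest, at 0.346% and 4.27%.

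Between 10 and 50 kb from the genes, KO IL-4 stood apart from the other libraries in its share of regions with a peak. It had a peak in 3 of the 28 regions (10.7%, interval 2.27 to 28.2), beside 50.4% of all merged regions. The other libraries were closer to the whole: WT untreated had a peak in 21 (75.0%, beside 83.0%), WT IL-4 in 16 (57.1%, beside 48.1%) and KO untreated in 17 (60.7%, beside 66.3%). The list of KO IL-4 was longer than that of WT IL-4. Of the 16 WT IL-4 peaks at that distance 14 were lost in KO IL-4 (87.5%, interval 61.7 to 98.4), beside 26.1% of all WT IL-4 peaks. Of the 17 KO untreated peaks 14 were lost with IL-4 (82.4%, interval 56.6 to 96.2), beside 37.7%. The average loss in the score deciles of the same peaks was 38.2% and 45.1%, below both intervals. The corresponding losses in WT with IL-4 (10 of 23, 43.5%) and between the untreated libraries (7 of 23, 30.4%) had intervals that held the shares of all peaks, 47.7% and 32.1%. WT IL-4 departed in its gains: 5 of 16 peaks were gained with IL-4 in WT (31.25%), and the interval excluded the 10.3% of all peaks. The average gain in the score deciles of those peaks, 16.6%, lay inside that interval. A peak in WT IL-4 alone was found at 4 of the 28 regions (14.3%), beside 2.85% of all regions. Those 4 are among the 14 WT IL-4 peaks lost in KO IL-4. The distance band was singled out after its values were seen.

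The 28 regions lay near 7 of the genes, and none near Rel, Nfkbiz or Nfkb1. Counting all peaks within 50 kb, Tnf had 5 peaks within 50 kb in WT IL-4 and 1 in KO IL-4, Icam1 3 and 1, Rela 2 and 1, and Rel 2 and 1, the 2 being the divided peak at its start. Relb had 4 and 2, Nfkb2 3 and 1, Nfkbia 3 and 0, and Map3k8 4 and 3. Nfkbiz went the other way, from 0 to 1, and Nfkb1 had none in either. That is 8 of 9 members with fewer peaks in KO IL-4, beside 24.3% of the protein-coding genes with a peak within 50 kb in either library, and 1 with more, beside 29.4%. The 8 include Rel, whose region held a peak in both libraries. The members had a mean of 2.6 WT IL-4 peaks within 50 kb, beside 1.27 for all protein-coding genes, so the shares are not like for like. Of the 28 regions, 7 had a peak in every library except KO IL-4 (25%), beside 6.01% of all regions. These 7 lay near Tnf (in Ddx39b), Icam1 (in Fdx2), Relb (in Clptm1), Nfkb2 (2 regions, at Psd and Fbxl15 and in Cuedc2) and Map3k8 (2 regions, 1 in Mtpap).

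**Figure D3:**
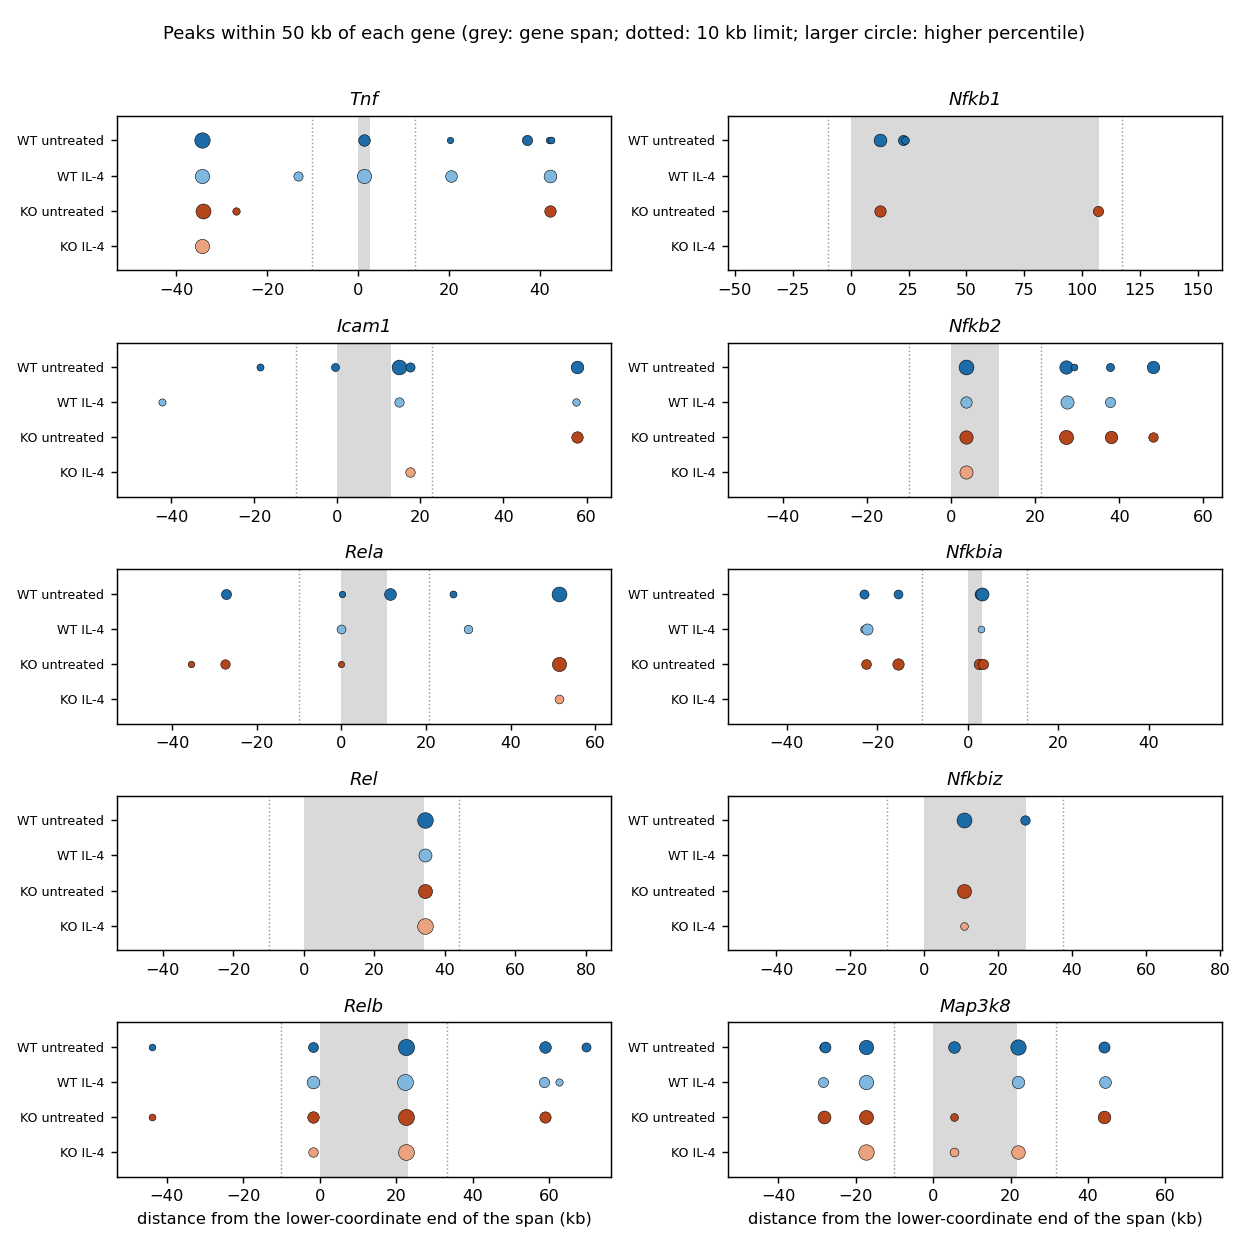
Each panel is a gene, with distance from the lower-coordinate end of its span in kb on the horizontal axis and the 4 libraries as rows. Grey is the gene span, dotted lines are the 10 kb limits and larger circles have a higher percentile in their own list. The KO IL-4 row holds 3 circles outside the dotted lines over all 10 panels, at Tnf, Rela and Map3k8, and the WT IL-4 row holds 16.

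The highest-scoring distal peaks of Tnf, Map3k8, Rela and Nfkb2 were each found in 3 or 4 libraries. Near Tnf a peak in Prrc2a, 33766 bp from the span, was present in all 4 libraries and scored 235 in WT untreated. Near Map3k8 a peak 16936 bp from the span, in no protein-coding gene, was also present in all 4 and scored 179 in KO IL-4, at percentile 87.4. Near Rela a peak at Map3k11 and Pcnx3, 40264 bp from the span, scored 189 in WT untreated and was missing from WT IL-4. Near Nfkb2 a peak at Psd and Fbxl15, 15633 bp away, scored 139 in KO untreated and was missing from KO IL-4, where 9.99% of KO untreated peaks in that decile had no counterpart. The highest ones of Icam1 (in Fdx2, 44468 bp away, 107 in WT untreated) and Relb (in Clptm1, 35292 bp away, 88.7 in WT untreated) were missing from KO IL-4 alone. That of Nfkbia, 15098 bp away in no protein-coding gene, scored 80.6 in KO untreated and was missing from both IL-4 libraries. Most of the distal peaks missing from KO IL-4 were lower. With a score of 100 or more in both lists, 2 distal WT IL-4 peaks were left, at Tnf and Map3k8, and 0 of them were lost, beside 24.2% of all peaks, so the shortage was not seen among them. Of the 5 distal KO untreated peaks left, 3 were lost, beside 41.8%. At equal list length 14 of 16 WT IL-4 peaks were still lost, beside 27.7%, and 8 of 11 KO untreated peaks, beside 26.7%.

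At the same distance from the 52 other genes of the pathway, and outside the members' loci, 15 of 44 WT IL-4 peaks were lost in KO IL-4 (34.1%, interval 20.5 to 49.9), beside 26.1% of all peaks. The members' interval there, 61.7 to 98.4, did not overlap it, but the distance band was singled out after its values were seen. The intervals take each peak as independent, though several lay near the same gene. The average loss in the score deciles of the peaks also differed, 24.9% for the other pathway genes and 38.2% for the members. With IL-4 in KO, 28 of 63 peaks of the other pathway genes were lost (44.4%, interval 31.9 to 57.5), beside 37.7%, and that interval overlapped the members' 56.6 to 96.2. There the score-decile averages were 37.6% for the other pathway genes and 45.1% for the members. The whole 50 kb contains these distal peaks, so its counts are not separate evidence. In KO against WT after IL-4 the members lost 18 of 26 peaks (69.2%, interval 48.2 to 85.7), beside 26.1% of all peaks. Of those 18, 14 were distal, and the score-decile average was 36.1%. The other pathway genes lost 26 of 94 (27.7%, interval 18.9 to 37.8). With IL-4 in KO the members lost 19 of 28 (67.9%, interval 47.6 to 84.1), beside 37.7%. Of those 19, 14 were distal, and the score-decile average was 45.3%. The others lost 53 of 131 (40.5%, interval 32.0 to 49.4), and in this comparison the intervals overlapped. None of these differences could be set against replicates.

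**Figure D4:**
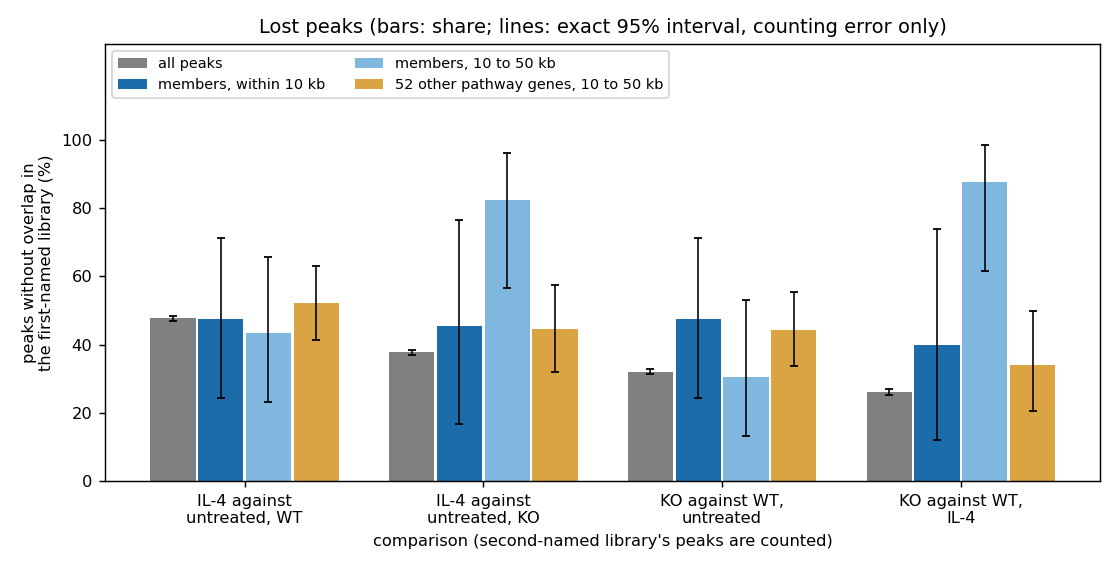
Bars give the percentage of peaks of the reference library (named second in each comparison) with no overlapping peak in the other, and lines are exact 95% intervals for counting error. Grey is all peaks, dark blue the members within 10 kb, light blue the members from 10 to 50 kb and yellow the 52 other pathway genes from 10 to 50 kb. The light blue bars stand at 82.4% and 87.5% in the comparisons of KO IL-4 with KO untreated and with WT IL-4, and the yellow bars beside them at 44.4% and 34.1%.

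Within 10 kb the other pathway genes followed the whole lists too. With IL-4 in WT, 32 of their 82 peaks were lost (39.0%, interval 28.4 to 50.4), beside 47.7% of all peaks, and 4 of 52 gained (7.69%), beside 10.3%. With IL-4 in KO, 25 of 68 were lost (36.8%), beside 37.7%, and 8 of 51 gained (15.7%), beside 18.1%. KO untreated lacked 23 of the 82 WT untreated peaks (28.0%), beside 32.1%, and had 11 of 68 that WT lacked (16.2%), beside 15.4%. After IL-4, KO lacked 13 of 52 (25%), beside 26.1%, and had 12 of 51 that WT lacked (23.5%), beside 29.5%. The exact interval of each pathway share held that of all peaks.

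By role, the 8 kinase genes lost 5 of 20 peaks with IL-4 in WT (25%, interval 8.66 to 49.1), beside 47.7% of all peaks. KO untreated lacked 3 of the 20 (15.0%, interval 3.21 to 37.9), beside 32.1%. The 9 inhibitor and feedback genes lost 5 of 18 with IL-4 in WT (27.8%, interval 9.69 to 53.5). The 15 receptor and adaptor genes lost 11 of 23 (47.8%, interval 26.8 to 69.4), and the 20 target genes 11 of 21 (52.4%, interval 29.8 to 74.3). Those intervals overlap and each holds the share of all peaks, so no order among the roles is shown.

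The pathway genes with the highest-scoring lost and gained peaks are named by rule. With IL-4 in WT a peak 9826 bp from Tbk1, a kinase of interferon and NF-kB signalling, was lost (score 229), as was a peak beside Ier3, an early response gene (141). Peaks in Tab2, an adaptor of the TAK1 kinase (63.7), and 8707 bp from Nfkbid, a nuclear inhibitor (61.7), were gained. With IL-4 in KO, peaks in Bcl3, a nuclear co-regulator of p50 and p52 (107), and near Traf3 (105) were lost. A peak in Tnip1, an A20-binding feedback protein (101), and one near the inhibitor gene Nfkbie (71.7) were gained.

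KO untreated lacked a peak near Tnfrsf1a (118) and one in Tnfrsf1b (89.6), which encode the TNF receptors, and had peaks in Tab2 (90.1) and near the chemokine gene Ccl3 (78.4) that WT untreated lacked. After IL-4 the highest peak that KO lacked was the Tnf peak, which counts for Lta and Ltb. The highest that KO had and WT lacked were at Ier3 (102) and Birc3, a ubiquitin ligase of the TNF receptor complex (98.7). Both TNF receptor genes and Tnf itself thus had a peak within 10 kb in WT untreated with no counterpart in KO untreated. The score deciles of these peaks are ones where such absences range from 24.7% to 36.9% of peaks. The receptor genes were named because their lost peaks scored highest, and the Tnfrsf1a peak lay 5116 bp from the span. The 52 pathway genes together lost 28.0% of their peaks there, beside 32.1% of all peaks.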

How the data were processed

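ATAC-seq peaks of 4 libraries, 1 per group, were analysed as deposited. Per the submitters' processing notes, the tools were HOMER, MACS 1.4.2 and Bowtie2 2.2.5 on mm10, and neither parameters nor order are stated. The deposited lists give a position and a score per peak. The scores ran from 50.01 to 3100 in WT untreated, as the -log10 p times 10 written by MACS 1.4 would, but no header states a unit, so the authors' score was read within its list. Raw scores were set across lists only to pick each gene's highest distal peak and for a minimum of 100, which lay between percentiles 49.3 and 61.1 of the lists.

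Gene spans came from a RefSeq table of GRCm38.p6, which matched 10 of 10 members and 52 of 52 pathway genes by symbol. It holds no exons. Promoter sequences and strands came from the RefSeq promoter table of the same build. Peaks were shared if they overlapped by at least 1 bp. Percentiles and score deciles were taken within each list. The 95% intervals are Clopper-Pearson (exact) and reflect counting error alone. No test was run. Edges are within 1 kb of a span end.

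The members, the 4 pathway lists and the comparisons were chosen with earlier results of these data known. All members are named, and up to 2 pathway genes with the highest lost and gained peak per comparison. Pathway genes with the same 4 counts as a member were also sought, at most 3 a member. The alternatives were reciprocal overlap of 50%, scores of 100 or more, the 9930 highest peaks of each list, a 500 bp gap, loci of 50 kb and edges of 2.5 kb. Overlap calling was tested on lists simulated from the 17339 WT untreated peaks: 199 of 200 planted losses were found, with 0 false calls. Software was SciPy 1.17.1, pandas 2.3.3, Matplotlib 3.10.9 and NumPy 2.4.6 under Python 3.11.15.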

Additional observations from a re-analysis of the deposited data

Results flagged for a closer look

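At 3 genes the count of peaks within 10 kb went in opposite directions under the same contrast, each with 1 library per group, so the difference was not tested. At Icam1 it differed by -2 with IL-4 in WT and by 1 in KO. At Map3k8 it differed by -1 with IL-4 in WT and by 1 in KO, and by -1 in KO against WT untreated and by 1 after IL-4. At Nfkbiz it differed by -1 in KO against WT untreated and by 1 after IL-4. The opposition ended at Icam1 and Nfkbiz at equal list length (0 and 1 at each) and with scores of 100 or more (-1 and 0 at Icam1, 0 and 0 at Nfkbiz). At Map3k8 it held under both but ended within 50 kb. There the differences were -2 with IL-4 in WT and -1 in KO, and -2 in KO against WT untreated and -1 after IL-4.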

How the results depend on the processing

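Of 69 recomputed counts, 40 stayed within 1.5 times the value reported. With reciprocal overlap of 50%, 1 of 10 peaks was gained with IL-4 in WT, beside 14.4% of all peaks. With scores of 100 or more in both lists, only 2 to 8 members' peaks were left within 10 kb in a library. Then 7 of 8 were lost with IL-4 in WT, beside 57.6% of all peaks, and 1 of 2 gained, beside 4.42%. In KO 2 of 4 were lost with IL-4, beside 41.8%, and 1 of 3 gained, beside 11.3%. Between the untreated libraries 4 of 8 were lost in KO, beside 35.1%, and 0 of 4 gained, beside 10.99%. After IL-4, 1 of 2 was lost in KO, beside 24.2%, and 2 of 3 gained, beside 29.8%. The loss after IL-4 was 1 of 4 within 50 kb. A peak in all 4 libraries was found at 1 of 9 regions, beside 28.9%. At equal list length, 4 of 10 were lost with IL-4 in WT, beside 25.8%, and 3 of 10 gained, beside 26.0%. In KO against WT untreated 4 of 10 were lost, beside 21.8%, and 3 of 9 gained, beside 22.1%. Within 50 kb, 19 of 42 were lost with IL-4 in WT, beside 47.7%, and 5 of 26 gained, beside 10.3%. With IL-4 in KO 19 of 28 were lost, beside 37.7%. In KO against WT untreated 16 of 42 were lost, beside 32.1%, and 4 of 28 gained, beside 15.4%. After IL-4, 18 of 26 were lost in KO, beside 26.1%. That 18 stood at 18 or 19 of 26 under equal list length, reciprocal overlap and the 500 bp gap, alternatives added after the data were seen. From 10 to 50 kb, with the same additions, the 14 lost after IL-4 became 0 of 2 with scores of 100 or more, and the 14 lost with IL-4 in KO became 3 of 5 so and 8 of 11 at equal list length. Also added was a score of 100 or more against any score. With IL-4 in WT 2 of 8 were then lost, beside 21.1%. With IL-4 in KO 0 of 4 were lost, beside 11.1%, and 1 of 3 gained, beside 2.01%. Between the untreated libraries 2 of 8 were lost, beside 8.66%, and 0 of 4 gained, beside 1.48%. After IL-4, 1 of 2 was lost in KO, beside 4.04%, and 0 of 3 gained, beside 5.31%. Of 120 differences per gene 5 turned direction: Rel with scores of 100 or more (-1 with IL-4 in WT, 1 in KO against WT after IL-4), Nfkb1 at equal list length (1 in KO against WT untreated) and Map3k8 within 50 kb (-1 with IL-4 in KO and -1 in KO against WT after IL-4). The cause was not tested, beyond fewer peaks entering a stricter list and more a wider locus. An edge peak was found at 7, 6, 5 and 3 members (8, 7, 5 and 3 with 2.5 kb) in WT untreated, WT IL-4, KO untreated and KO IL-4, beside 38.2%, 28.4%, 34.8% and 29.0% of all genes. No paired analysis was possible because each group holds 1 library. Depth is unknown, so what it limits cannot be given per library.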
